A study of Homo sapiens with 16 samples.

Results

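The respiratory chain of the inner mitochondrial membrane passes electrons from NADH and succinate to oxygen through complexes I to IV, and the proton gradient that this builds drives ATP synthase, complex V. Most subunits are encoded in the nucleus and imported into mitochondria, whereas some core subunits of complexes I, III, IV and V are encoded by the mitochondrial genome, and complex II is wholly nuclear. The nuclear genes described here were chosen by name, not by their values: NDUF names with A, B, C, S or V and a number for complex I, SDHA to SDHD for complex II, UQCR names for complex III, COX4 to COX8 names for complex IV and ATP5 names for complex V. Of 57500 genes in the files, 140 names fitted, and 56 of these ended as pseudogene names do and were left out, so that 84 genes remained. Sorted by name, they comprise 36 genes of complex I, 4 of complex II, 9 of complex III, 15 of complex IV and 20 of complex V. Such a name does not by itself make a gene a subunit, and ATP5S and the inhibitor gene ATP5IF1 were counted by name alone. No COX4 gene is among them, as no COX4 name fitted the pattern. NDUFA4, which carries a complex I name, was counted with complex IV, of which it is a subunit.

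The study profiled total RNA of HEK293T, an established line of human embryonic kidney origin that carries the SV40 large T antigen, with a lentivector for the histone H2A(E92K) or for H2A. There were 4 groups of 4 libraries: H2A(E92K) cells with DMSO, H2A cells with JQ1 at 1 µM for 3 h, H2A cells with pinometostat at 2.5 µM for 24 h, and H2A cells with DMSO. E92K puts a lysine in place of a glutamate in the acidic patch of the nucleosome, JQ1 displaces BET proteins from acetylated histones, and pinometostat inhibits the histone H3 methyltransferase DOT1L. No time is given for DMSO, and the libraries are numbered without a statement that they came from separate cultures, so that p-values may measure technical spread alone. The labels do not give the promoter of the vectors, whether each line is a single clone, or how much H2A comes from the vector, and all 4 groups carry a vector.

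Total counts ran from 17779692 to 27599686 per library. Of 13 markers of the developing kidney 12 passed the filter on low counts, as did 6 of 6 fibroblast markers and 3 of 5 muscle markers. None of 4 hepatocyte markers and 1 of 7 blood cell markers did. Genes of the mitochondrial genome took 16.5% of counts in JQ1 replicate 1 and 7.45% in E92K replicate 4, against 3.04% to 5.04% in the other 14 libraries, and results are given without these libraries where they turn on them. In bulk RNA, less RNA per cell and fewer cells with a transcript cannot be told apart. Whether counting used strand is not given in the sources used here, so counts of genes that share exonic bases with a neighbour are uncertain. That applied to 43 of the 84 genes, 18 of them with over 20% of their bases. Among the genes named below it holds for COX6A2 (46.0% of exonic bases), COX8A (34.5%), COX6B2 (30.9%), ATP5PF (23.1%), ATP5S (20.1%), NDUFC2 (18.1%), SDHD (13.8%), COX6A1 (13.0%), ATP5MC3 (7.18%), ATP5MC2 (6.99%), SDHC (5.47%), UQCRFS1 (5.01%), ATP5MD (2.76%) and others whose share is given beside their values. Genes outside the 84 were not examined for shared bases.

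Of the 84 genes, 79 passed the filter on low counts and were tested. The 84 genes together took 1.60 ± 0.151% of counts in E92K cells, 1.57 ± 0.127% with JQ1, 1.69 ± 0.0446% with pinometostat and 1.5 ± 0.110% in H2A cells with DMSO (SD, n = 4 each). Levels are compared between genes in TPM, which divides counts by exonic length. In H2A cells with DMSO the tested members ran between 0.886 TPM for COX6B2 and 1939 TPM for NDUFS5.

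In complex I, NDUFS5, an accessory subunit, had 2036 ± 262 TPM in E92K cells, 2091 ± 253 with JQ1, 1936 ± 127 with pinometostat and 1939 ± 142 in H2A cells with DMSO (SD, n = 4 each, here and below). NDUFB10, an accessory subunit of the membrane arm, had 863 ± 64.8 TPM in E92K cells, 882 ± 45.1 with JQ1, 835 ± 22.2 with pinometostat and 857 ± 30.7 in H2A cells with DMSO. In complex II, the iron-sulfur subunit gene SDHB had 156 ± 36.2 TPM in E92K cells, 148 ± 58.9 with JQ1, 172 ± 3.66 with pinometostat and 178 ± 7.06 in H2A cells with DMSO. The membrane anchor SDHD stood at 128 ± 12.5 TPM, the flavoprotein SDHA at 92.2 ± 8.91 TPM and the anchor SDHC at 44.6 ± 1.24 TPM in H2A cells with DMSO, and the 4 genes did not overlap in these libraries. The exonic length of SDHC in the files is 14160 bases, the longest among the members, and that of NDUFS5 548 bases, and TPM values depend on these lengths.

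In complex III the hinge protein gene UQCRH had 921 ± 69.1 TPM in E92K cells, 818 ± 36.1 with JQ1, 1015 ± 40.5 with pinometostat and 828 ± 92.5 in H2A cells with DMSO, and the small subunit gene UQCR10 had 653 ± 61.6 TPM in E92K cells, 623 ± 38.1 with JQ1, 717 ± 12.6 with pinometostat and 633 ± 53.1 in H2A cells with DMSO. In complex IV the highest genes were COX8A, with 1287 ± 60.8 TPM in E92K cells, 1404 ± 128 with JQ1, 1255 ± 34.2 with pinometostat and 1425 ± 57.8 in H2A cells with DMSO, and COX6A1, with 1402 ± 243 TPM in E92K cells, 1589 ± 125 with JQ1, 1478 ± 86.9 with pinometostat and 1413 ± 98.1 in H2A cells with DMSO. In complex V, ATP5F1B, the catalytic beta subunit, had 1148 ± 273 TPM in E92K cells, 1212 ± 541 with JQ1, 1176 ± 31.3 with pinometostat and 1327 ± 44.1 in H2A cells with DMSO. In ATP5F1B, JQ1 replicate 1 stood at 407 TPM and E92K replicate 4 at 743 TPM, and the other 14 libraries lay between 1135 and 1564 TPM. ATP5MD, a small subunit of the membrane part, had 519 ± 78.7 TPM in E92K cells, 486 ± 61.8 with JQ1, 651 ± 47.7 with pinometostat and 462 ± 60.1 in H2A cells with DMSO, and ATP5IF1, which inhibits ATP synthase running in reverse, had 468 ± 97.0 TPM in E92K cells, 477 ± 109.9 with JQ1, 458 ± 18.6 with pinometostat and 444 ± 37.7 in H2A cells with DMSO. The ranges of COX8A and COX6A1 in H2A cells with DMSO overlapped, as did those of COX6A1 and ATP5F1B, while NDUFS5 lay above all of them.

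**Figure D1:**
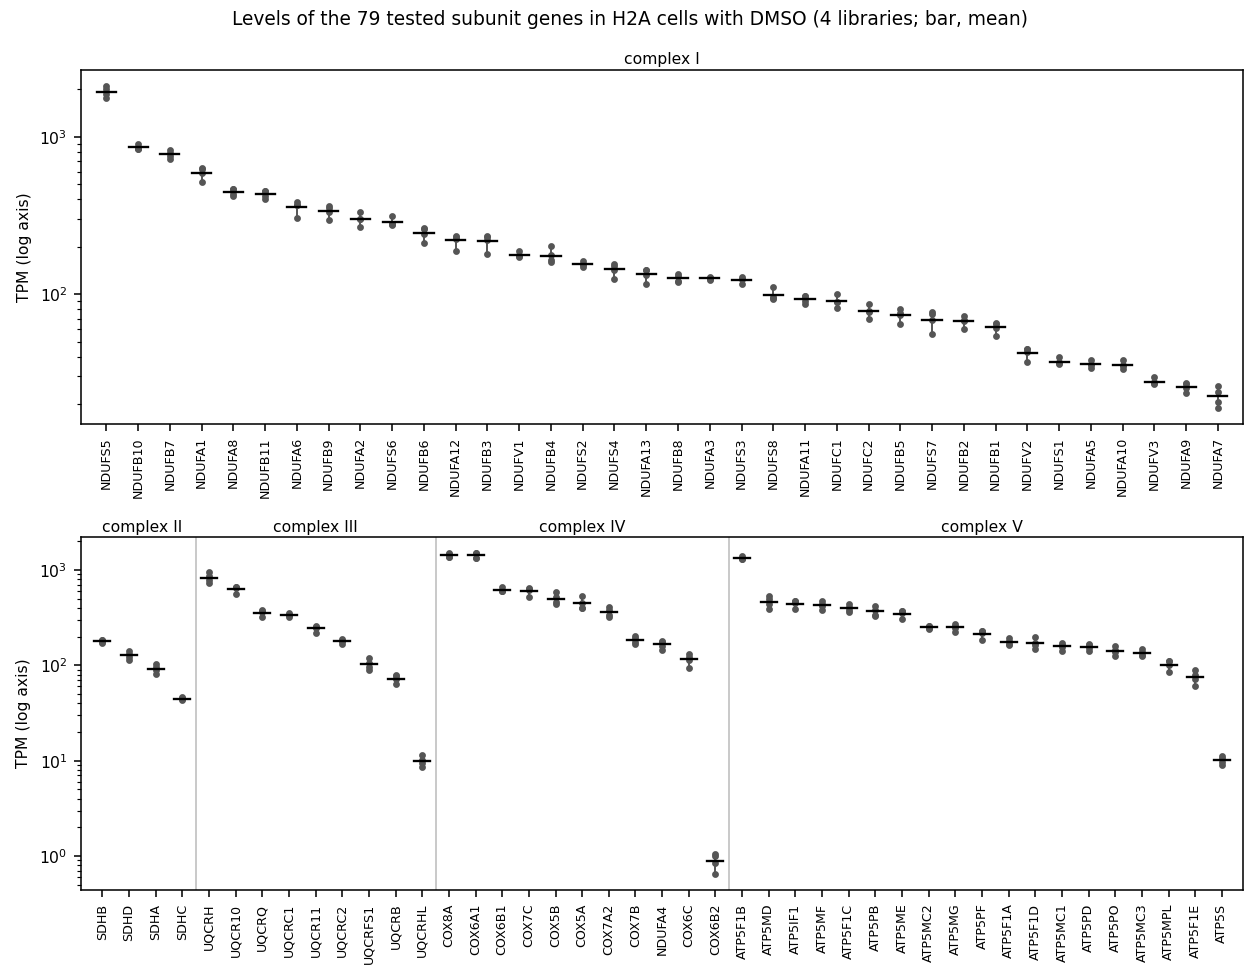
Level of each of the 79 tested members in the 4 libraries of H2A cells with DMSO, in TPM on a log axis, by complex; points are libraries and the bar is their mean. NDUFS5, COX8A, COX6A1 and ATP5F1B lie above 1000 TPM, and COX6B2, UQCRHL and ATP5S lie lowest.

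Where a subunit has isoforms among the members, the widely expressed form was present and the form known from muscle or testis was low or not detected in all 4 groups. COX6A2, the heart and muscle form, had 0 counts in all 16 libraries, which allows up to 0.109 to 0.169 CPM (counts scaled to library size, here 3 counts over the total of each library, counting error only). The other CPM values also carry the TMM scaling factor of the library, which this bound leaves out. COX7A1, another muscle form, had 17 counts in all over the 16 libraries, COX7B2 had 5, COX8C had 37 and ATP5MGL had 2. These are the 5 members that were not tested, and no difference between groups was detectable in them at this depth. COX6B2, a testis form, had 0.661, 0.956, 1.23 and 0.895 CPM in the E92K libraries, 1.38, 0.928, 0.725 and 1.03 in the JQ1 libraries, 0.940, 0.939, 0.950 and 0.849 in the pinometostat libraries and 1.16, 0.741, 1.22 and 1.05 in H2A cells with DMSO, and the groups overlapped. Its partner COX6B1 stood at 616 ± 29.5 TPM in H2A cells with DMSO, against 0.886 ± 0.178 TPM for COX6B2. UQCRHL, close in sequence to UQCRH, had 8.97 ± 2.04 TPM in E92K cells, 9.80 ± 0.698 with JQ1, 10.3 ± 1.71 with pinometostat and 9.86 ± 1.18 in H2A cells with DMSO, and the authors' counting could have split reads between these copies.

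Members moved together between libraries of a group. In H2A cells with DMSO, 73 of 79 members lay below the group mean in replicate 1 and 65 in replicate 2, while 74 lay above it in replicate 3 and 75 in replicate 4. Of the E92K libraries, replicates 1, 2 and 4 had 70, 56 and 65 members above the mean of H2A cells with DMSO, and replicate 3 had 67 below it. The mean log2 CPM over the 79 members was 7.27, 7.20, 6.94 and 7.45 in the E92K libraries, 7.72, 7.19, 7.19 and 7.11 in the JQ1 libraries, 7.22, 7.28, 7.40 and 7.29 in the pinometostat libraries, and 6.87, 7.01, 7.17 and 7.22 in H2A cells with DMSO. The pinometostat libraries were the closest to each other and overlapped no library of H2A cells with DMSO, the lowest of them by a narrow margin. Members of a library are therefore not replicates of each other.

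**Figure D2:**
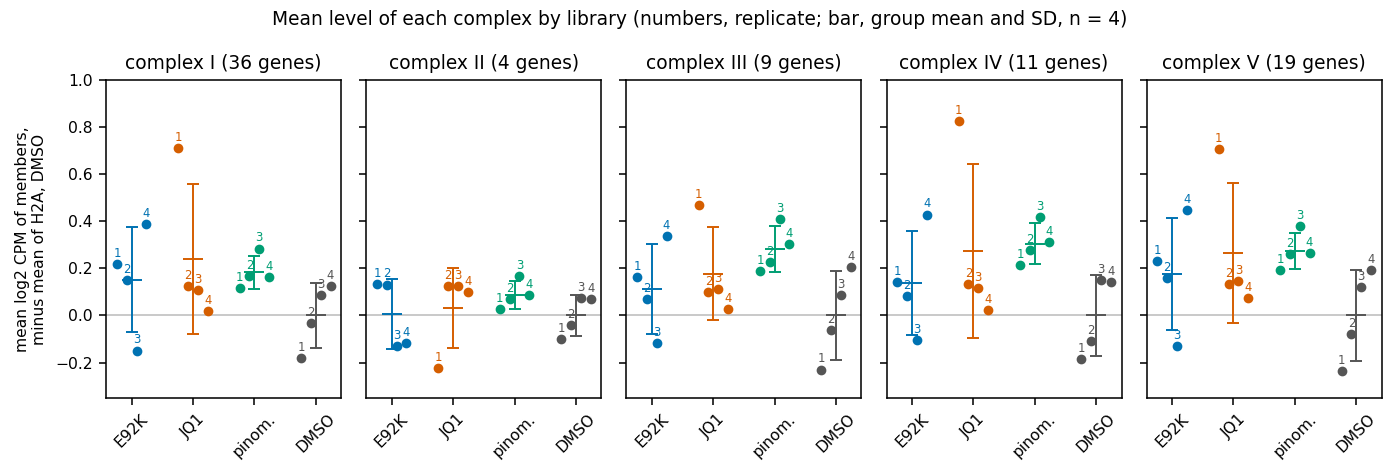
Mean log2 CPM over the tested members of each complex, minus the mean of H2A cells with DMSO, for each library (points, numbered by replicate), with group mean and SD (n = 4). JQ1 replicate 1 is the highest library for complexes I, III, IV and V and the lowest for complex II.

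With pinometostat, NDUFB3 and NDUFB9 of complex I, NDUFA4, COX7B and COX7A2 of complex IV and the ATP synthase stalk genes ATP5F1E, ATP5PO and ATP5PB rose, and SDHA, the catalytic subunit of complex II, fell. Of the 79 members 8 were higher and 1 was lower than in H2A cells with DMSO (edgeR quasi-likelihood, adjusted p below 0.05), against 8.2% of all 17306 genes tested, 3.62% higher and 4.58% lower. At an unadjusted p below 0.05 there were 29 members and 25.6% of all genes. The median log2 fold change was 0.26 over the members and 0.03 over all genes, and 62 of the 79 members had a positive value. In 33 members the 4 pinometostat libraries lay above all 4 libraries of H2A cells with DMSO and in 4 they lay below, against 12.7% and 13.5% of all genes.

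In complex I, which oxidises NADH, 2 of 36 members rose and none fell, with 12 at an unadjusted p below 0.05. NDUFB3 (ENSG00000119013, chromosome 2, 201071433 to 201085750, plus strand, on GRCh38 as for all genes below), an accessory subunit of the membrane arm, had 104, 92.9, 63.0 and 72.1 CPM in the E92K libraries, 69.7, 79.8, 78.8 and 75.7 in the JQ1 libraries, 92.3, 115, 119.6 and 114 in the pinometostat libraries and 58.0, 72.8, 82.4 and 82.8 in H2A cells with DMSO. The pinometostat libraries lay above those of H2A cells with DMSO, and NDUFB3 rose by 0.57 ± 0.15 on the log2 scale (SE, adjusted p = 0.0264). NDUFB9 (ENSG00000147684, chromosome 8, 124539103 to 124568510, plus strand), also of the membrane arm, had 383, 385, 416 and 382 CPM in the pinometostat libraries, against 228, 262, 298 and 311 in H2A cells with DMSO, without overlap. NDUFB9 rose by 0.51 ± 0.15 (adjusted p = 0.0402). Both share exonic bases with neighbours, 19.8% of NDUFB3 with FAM126B and 19.7% of NDUFB9 with MTSS1 and TATDN1.

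The 7 nuclear core subunits of complex I, which carry the flavin and the iron-sulfur clusters or form the quinone site, had a median of -0.15, and 3 of the 7 values were positive. The other 29 members of complex I had a median of 0.27, with 23 positive values. Coding lengths were 630 to 2223 bases in the core genes and 210 to 1419 bases in the other 29. The part of coding length in this difference was not tested. The core genes NDUFS7 (49.1%), NDUFV2 (28.4%), NDUFS3 (22.4%) and NDUFS1 (11.7%) share exonic bases with neighbours. Pseudogene counts came to 13.1% of those of NDUFV2. Among the core genes, NDUFV1 (ENSG00000167792, chromosome 11, 67606852 to 67612535, plus strand), which binds NADH and flavin, had 212, 211, 225 and 235 CPM in the E92K libraries, 324, 274, 255 and 253 in the JQ1 libraries, 184, 185, 189 and 197 in the pinometostat libraries and 228, 218, 235 and 232 in H2A cells with DMSO. The 4 pinometostat libraries were the lowest of the 16 and the 4 JQ1 libraries the highest. With pinometostat NDUFV1 was at -0.27 ± 0.09 and was not called (adjusted p = 0.0760).

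In complex II, SDHA (ENSG00000073578, chromosome 5, 218241 to 256700, plus strand), the flavoprotein that oxidises succinate, had 212, 222, 211 and 204 CPM in the E92K libraries, 226, 277, 281 and 270.4 in the JQ1 libraries, 164, 169, 178 and 181 in the pinometostat libraries and 250.3, 239, 241 and 222 in H2A cells with DMSO. The 4 pinometostat libraries were the lowest of the 16, and JQ1 replicates 2 to 4 the highest. SDHA fell by 0.46 ± 0.09 on the log2 scale with pinometostat (adjusted p = 0.00920). Counts of its pseudogenes came to 4.98% of those of SDHA, and reads could be split between them. The anchors SDHC and SDHD lay above H2A cells with DMSO in all 4 pinometostat libraries, at 0.36 ± 0.18 and 0.35 ± 0.15, and were not called (adjusted p = 0.218 and 0.157). SDHB was at 0.09 ± 0.15 with overlapping groups.

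In complex III, which passes electrons to cytochrome c, none of 9 members was called by edgeR, with 4 at an unadjusted p below 0.05, and 5 lay wholly above H2A cells with DMSO. UQCRH had 444, 472, 539.7 and 491 CPM in the pinometostat libraries, against 299, 328, 388 and 431 in H2A cells with DMSO. The groups did not overlap, and the fold change of 0.43 ± 0.17 was not called (adjusted p = 0.131).

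In complex IV, which reduces oxygen, 3 of 11 tested members rose and none fell, with 5 at an unadjusted p below 0.05. NDUFA4 (ENSG00000189043, chromosome 7, 10931951 to 10940256, minus strand) had 234, 205, 164 and 218 CPM in the E92K libraries, 227, 208, 208 and 190.3 in the JQ1 libraries, 273, 283, 301 and 291 in the pinometostat libraries and 151, 169, 206 and 202 in H2A cells with DMSO. The 4 pinometostat libraries lay above the 12 others, and the other 3 groups overlapped. NDUFA4 rose by 0.66 ± 0.12 (adjusted p = 0.00710). COX7B (ENSG00000131174, chromosome X, 77899438 to 77907373, plus strand) had 205, 203, 177 and 300.5 CPM in the E92K libraries, 392, 195, 193 and 185 in the JQ1 libraries, 274, 279, 289 and 286 in the pinometostat libraries and 147, 159, 188 and 202 in H2A cells with DMSO. The pinometostat libraries lay above those of H2A cells with DMSO, while JQ1 replicate 1 and E92K replicate 4 were higher still. COX7B rose by 0.70 ± 0.21, with an adjusted p of 0.0490. COX7A2 (ENSG00000112695, chromosome 6, 75237675 to 75250323, minus strand), the form of COX7A found in most tissues, had 290.0, 319.6, 331 and 313 CPM in the pinometostat libraries, against 179.7, 218, 251 and 212 in H2A cells with DMSO, and rose by 0.54 ± 0.15 (adjusted p = 0.0335). These 3 genes share no exonic bases with other genes. Of the most abundant genes of complex IV, COX8A was at -0.04 ± 0.14, COX6B1 at -0.04 ± 0.27 and COX6A1 at 0.20 ± 0.21, and none of these was called. In TPM the pinometostat libraries of COX8A (1205 to 1279 TPM) lay wholly below those of H2A cells with DMSO (1374 to 1484 TPM). The same held for COX6B1 (452 to 594 TPM, against 597 to 660 TPM), while COX6A1 overlapped. Each of these was called in 0 of 32 other settings.

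In complex V, 3 of 19 tested members rose and none fell, with 6 at an unadjusted p below 0.05. ATP5F1E (ENSG00000124172, chromosome 20, 59025467 to 59032382, minus strand), the epsilon subunit in the central stalk, had 139.9, 133, 112 and 144 CPM in the E92K libraries, 137, 140.2, 134 and 138 in the JQ1 libraries, 166, 188, 199 and 197 in the pinometostat libraries and 89.8, 109.9, 128 and 148 in H2A cells with DMSO. The pinometostat libraries were the 4 highest of the 16, and ATP5F1E rose by 0.66 ± 0.13 (adjusted p = 0.00902). It shares 23.2% of its exonic bases with TUBB1. ATP5PO (ENSG00000241837, chromosome 21, 33903453 to 33915980, minus strand), the protein that joins the peripheral stalk to the catalytic head, had 215, 221, 152 and 245 CPM in the E92K libraries, 242, 153, 146 and 151 in the JQ1 libraries, 244, 223, 229 and 205 in the pinometostat libraries and 123, 137, 155 and 173 in H2A cells with DMSO. Pinometostat lay above H2A cells with DMSO, and E92K replicates 1, 2 and 4 and JQ1 replicate 1 also reached the pinometostat range. ATP5PO rose by 0.62 ± 0.17 (adjusted p = 0.0331), and shares 25.4% of its exonic bases with AP000311.1 and LINC00649. ATP5PB (ENSG00000116459, chromosome 1, 111448864 to 111462773, plus strand), the b subunit of the peripheral stalk, had 526, 515, 558 and 500.4 CPM in the pinometostat libraries, against 324, 343, 412 and 465 in H2A cells with DMSO, without overlap. ATP5PB rose by 0.44 ± 0.13 (adjusted p = 0.0394), and shares 10.3% of its exonic bases with WDR77.

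Of the 4 peripheral stalk genes 2 rose, and their median was 0.44. The c-ring genes ATP5MC1, ATP5MC2 and ATP5MC3, which form the rotor, lay between 0.00 and 0.17, and none was called. ATP5MD, at 0.63 ± 0.25, lay above H2A cells with DMSO in all 4 libraries and was not called (adjusted p = 0.116). ATP5IF1 was at 0.18 ± 0.28 and ATP5F1B at -0.03 ± 0.18, both with overlapping groups in CPM. In TPM the groups overlapped for ATP5IF1. For ATP5F1B the pinometostat libraries (1135 to 1211 TPM) lay wholly below those of H2A cells with DMSO (1289 to 1382 TPM). ATP5F1B was called in 0 of 32 other settings.

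**Figure D3:**
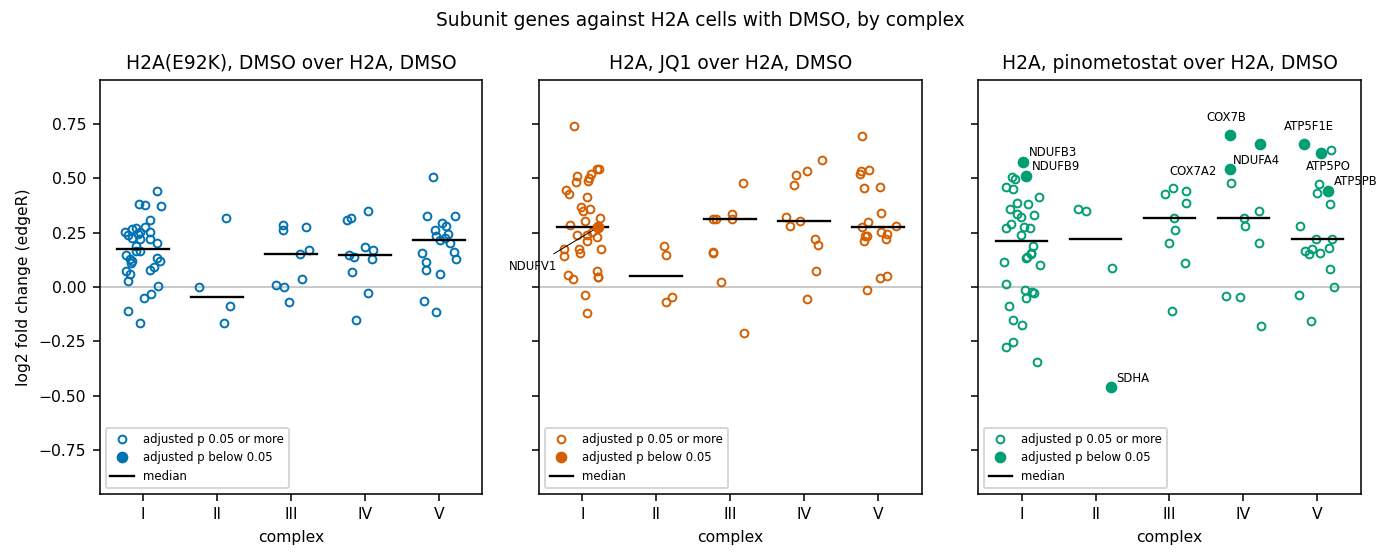
Log2 fold change of each tested member against H2A cells with DMSO, by complex, for E92K, JQ1 and pinometostat (edgeR; filled and named, adjusted p below 0.05; bar, median of the complex). With pinometostat 8 members are called higher and SDHA lower, with JQ1 NDUFV1 is called, and with E92K none.

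The number of calls with pinometostat depended on single libraries. Without JQ1 replicate 1, which enters the shared estimate of spread, 21 members were higher and 4 lower, against 7.21% and 13.8% of all genes. Without E92K replicate 4 as well, 36 were higher and 4 lower, against 12.9% and 14.5%. Among the lower genes without JQ1 replicate 1 were SDHA (-0.52), NDUFV1 (-0.33) and NDUFS7 (-0.40), the last also a core subunit of complex I. The count was 3 without H2A replicate 1 or 2 with DMSO or without pinometostat replicate 2, 3 or 4, it was 4 without pinometostat replicate 1 and 5 without H2A replicate 3 with DMSO, where 1.61% to 4.45% of all genes were called. These 7 fits do not include the one without H2A replicate 4 with DMSO, whose count is not listed here. On the log2(TPM + 1) scale 2 members rose and none fell, against 0.438% and 2.35% of all genes. NDUFA4, ATP5F1E and SDHA were each called in 29 of 32 other settings, and ATP5PO in 22, NDUFB3 in 21, COX7A2 in 20, NDUFB9 in 16, ATP5PB in 14 and COX7B in 13, with no change of sign. Of 6 epithelial and cytoskeletal markers 2 also fell with pinometostat, KRT8 (-0.45) and CDH1 (-0.60), and their part in these results was not tested.

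**Figure D4:**
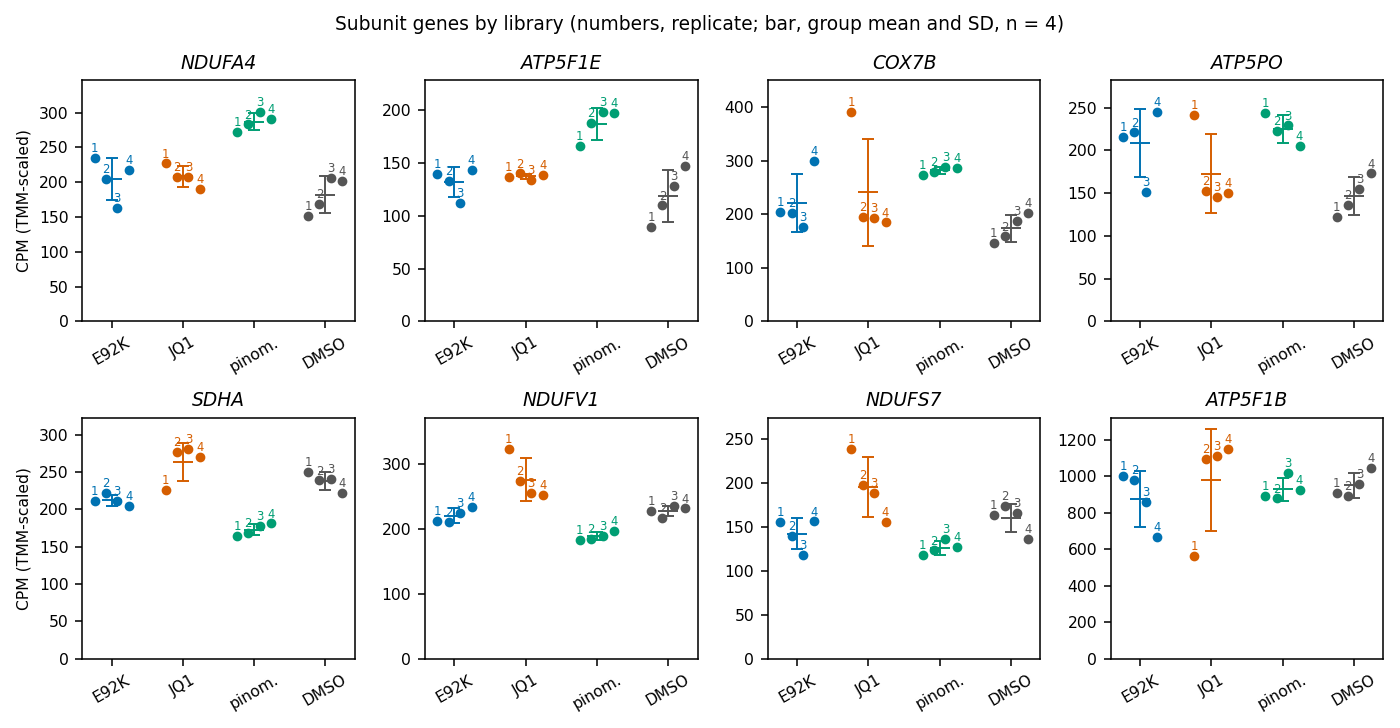
CPM of 8 members in each of the 16 libraries (points, numbered by replicate), with group mean and SD (n = 4) and axes from 0. Pinometostat is highest in NDUFA4 and ATP5F1E and lowest in SDHA and NDUFV1, and JQ1 replicate 1 stands apart in COX7B, ATP5PO and ATP5F1B.

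With the acidic patch mutant no member was called. The count was 0 of 79 with edgeR, where 0% of all genes were called, and 0 with DESeq2. At an unadjusted p below 0.05 there were 3 members and 7.49% of all genes. The median over the members was 0.16, with 66 of 79 values positive, but in no member did the E92K libraries lie wholly outside those of H2A cells with DMSO, against 5.17% of all genes. ATP5PO was at 0.50 ± 0.17 (adjusted p = 0.656), with E92K replicates 1, 2 and 4 above H2A cells with DMSO and replicate 3 within their range. NDUFC2, a subunit of the membrane arm of complex I, was at 0.44 ± 0.18, and ATP5PF, of the peripheral stalk, at 0.33 ± 0.16. Without E92K replicate 4 the median was 0.05. With weights for library quality 11 members were higher and none lower, against 2.75% of all genes higher, led by ATP5PO (0.55) and NDUFC2 (0.55).

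With JQ1, 1 of 79 members was called, NDUFV1, against 17.6% of all genes in either direction and 7.16% higher. NDUFV1 was higher by 0.28 ± 0.09 (edgeR quasi-likelihood, adjusted p = 0.0490), and was the only member whose JQ1 libraries lay wholly above those of H2A cells with DMSO, against 8.26% of all genes. It was called in 6 of 32 other settings, and on the log2(TPM + 1) scale it was at -0.03, where the median of all genes was -0.22. The median over the members was 0.28, against 0.04 over all genes, with 72 of 79 values positive, and 20 members and 31.1% of all genes had an unadjusted p below 0.05. On the log2(TPM + 1) scale the median of the members was -0.05. Without JQ1 replicate 1 the median was 0.05 and no member was called, against 18.2% of all genes, and without JQ1 replicate 4 there were 6 higher, against 8.24%. Leaving out any library other than JQ1 replicate 3 or 4 gave 0 calls. Of 12 kidney markers 10 fell and 1 rose with JQ1, and their part in these values was not tested.

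JQ1 replicate 1 stood apart in many members. In it 66 of 79 members lay above the mean of H2A cells with DMSO, 24 of them by more than 1 on the log2 scale, which no other library showed for any member, and 13 lay below. ATP5IF1 had 851, 313, 308 and 298 CPM in the JQ1 libraries, against 253, 295, 332 and 342 in H2A cells with DMSO. NDUFS5 had 802, 369.5, 361 and 326 CPM in the JQ1 libraries, against 284, 329, 366 and 335 in H2A cells with DMSO. In both genes JQ1 replicate 1 was the highest library and JQ1 replicates 2 to 4 overlapped H2A cells with DMSO. ATP5F1B had 1005, 981, 861 and 669 CPM in the E92K libraries, 562, 1097, 1112 and 1150.3 in the JQ1 libraries, 895, 879.9, 1018 and 927 in the pinometostat libraries and 911, 892, 960.1 and 1046 in H2A cells with DMSO. Here JQ1 replicate 1 was the lowest library, E92K replicate 4 the next, and JQ1 replicates 2 to 4 the highest. SDHC had 109.5, 209.9, 214 and 224 CPM in the JQ1 libraries, against 178, 188, 203 and 213 in H2A cells with DMSO, and JQ1 replicate 1 was again the lowest.

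The members have short coding sequences, with a median of 435 bases against 1434 over tested genes with a coding sequence. In JQ1 replicate 1 the median difference from H2A cells with DMSO was 0.87 in the 55 members under 600 bases, 0.68 in the 13 members of 600 to 1000 bases and -0.07 in the 11 longer members. Other protein-coding genes of these classes had 0.25, 0.01 and -0.14 in that library. In E92K replicate 4 the medians of the members were 0.57, 0.41 and -0.16, against 0.18, 0.06 and -0.11 in other genes. For pinometostat over H2A cells with DMSO, the median fold changes of the members were 0.32, 0.27 and -0.03, against 0.16, 0.01 and -0.05 in other genes. Shorter members thus had the higher values in each of these, and in JQ1 replicates 2 to 4 the medians of all 3 classes lay between 0.02 and 0.18. The classes were chosen after the values were seen, and the part of coding length, mitochondrial share or RNA quality in these differences was not tested.

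**Figure D5:**
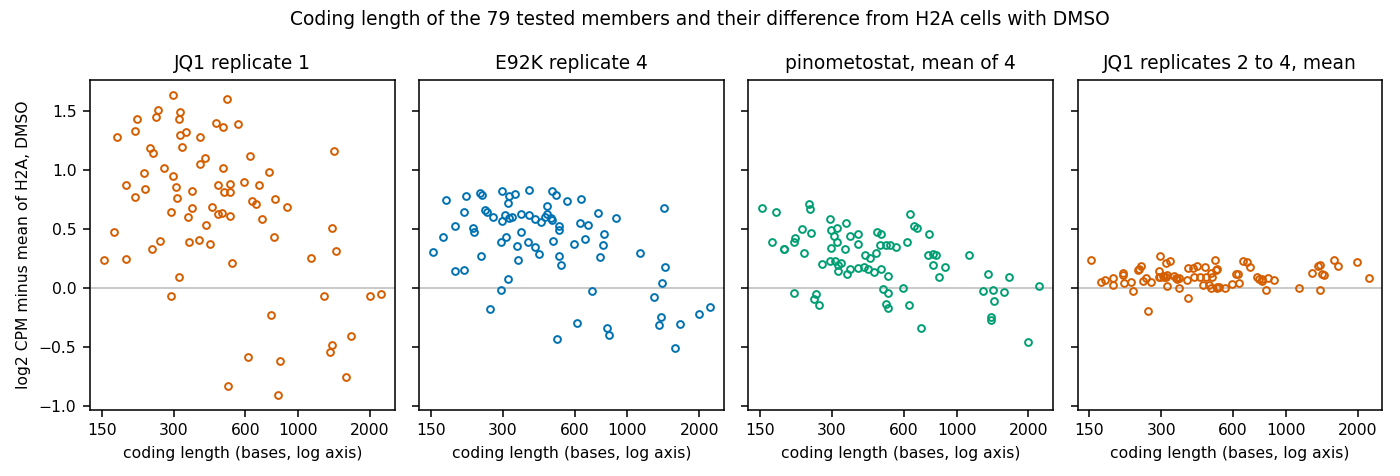
Coding length in bases (log axis) of the 79 tested members against their log2 CPM minus the mean of H2A cells with DMSO, in JQ1 replicate 1, E92K replicate 4, the mean of the pinometostat libraries and the mean of JQ1 replicates 2 to 4. The 11 members of 1000 bases and more have medians of -0.07 in JQ1 replicate 1 and -0.16 in E92K replicate 4.

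The conditions were also set against each other directly, although doses, times and, for E92K, the histone differ. Between JQ1 and pinometostat 5 members were higher and 5 lower in JQ1, against 16.8% and 17.4% of all genes. SDHA was higher in JQ1 by 0.61 ± 0.09 (edgeR, adjusted p = 7.67e-05), and NDUFV1 by 0.55 ± 0.09 (adjusted p = 2.35e-04). NDUFS7, which carries the iron-sulfur cluster next to the quinone, had 238, 198, 188 and 155 CPM in the JQ1 libraries, against 118, 123, 136 and 127 in the pinometostat libraries. The groups did not overlap, and NDUFS7 was higher by 0.63 ± 0.13 (adjusted p = 0.00108), though it shares 49.1% of its exonic bases with neighbours. NDUFS8, another core subunit (0.58 ± 0.20), and ATP5F1D, the delta subunit of the central stalk (0.85 ± 0.26), were also higher. NDUFS8 was at 0.29 and no longer called without JQ1 replicate 1 (adjusted p = 0.0940), where ATP5F1D was at 0.40 (adjusted p = 0.0439). Lower in JQ1 were NDUFA4 (-0.46 ± 0.12), NDUFB3 (-0.53 ± 0.15), ATP5PB (-0.45 ± 0.13), ATP5F1E (-0.45 ± 0.13) and UQCRFS1, the Rieske protein of complex III (-0.47 ± 0.18). Without JQ1 replicate 1, 6 were higher and 19 lower, against 20.5% and 18.5% of all genes, with SDHA (0.70), NDUFV1 (0.49) and NDUFS7 (0.54) again higher, while UQCRFS1 was at -0.27 and no longer called (adjusted p = 0.0935). The balance of higher and lower members depended on the setting. With a length trend removed 15 were higher and 4 lower, against 21.4% and 14.5% of all genes, and with a GC trend removed 7 were higher and none lower, against 21% and 12.5%. Library size alone gave 4 higher and 16 lower, against 10% and 22.1%, and log2(TPM + 1) also gave 4 and 16, against 5.37% and 14.3%. With both libraries of high mitochondrial share left out, 7 were higher and 30 lower, against 21.6% and 23.4%.

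Between E92K and JQ1, 3 members were lower in E92K and none higher, against 10.9% of all genes lower and 22.9% in either direction. SDHA was at -0.31 ± 0.09 (adjusted p = 0.0186), NDUFV1 at -0.33 ± 0.09 (adjusted p = 0.0172) and NDUFS7 at -0.45 ± 0.13 (adjusted p = 0.0156). With scaling by library size alone, which put the median of all genes at 0.11, 3 members were instead called higher and none lower, against 16.5% of all genes higher. On the log2(TPM + 1) scale, where the median of all genes was 0.14, 2 were higher and none lower, against 10.1% higher. Without JQ1 replicate 1, 4 were higher and 4 lower, against 16.6% and 15.4%. Between E92K and pinometostat edgeR called no member, against 0.352% of all genes, with 9 members and 17.4% of all genes at an unadjusted p below 0.05, and DESeq2 called 3, against 5.41%. Without JQ1 replicate 1, SDHA (0.33) and NDUFV1 (0.26) were higher in E92K, and NDUFA4 (-0.45), ATP5F1E (-0.47) and COX7A2 (-0.36) lower, against 7.18% and 2.99% of all genes.

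In 5 lists of further subunits, assembly factors and regulators, 9 of 78 tested genes were called with pinometostat, 8 higher and 1 lower. That is 11.5% of them, with 10.3% higher, against 8.2% of all genes and 3.62% higher. There were 15 higher and 3 lower without JQ1 replicate 1, against 7.21% and 13.8% of all genes. Of 9 further subunit genes that the name patterns miss, 8 were tested, and NDUFAB1, the mitochondrial acyl carrier protein and a complex I subunit, rose by 0.62 ± 0.15 (adjusted p = 0.0224). Of 17 complex I assembly factors 3 rose, TMEM126B (0.66 ± 0.14), NDUFAF5 (0.54 ± 0.15) and COA1 (0.51 ± 0.11), and none fell. Of 10 assembly factors for complexes II and III, SDHAF3 (0.44 ± 0.13) and LYRM7 (0.42 ± 0.10) rose, and of 25 for complexes IV and V COX14 (0.49 ± 0.15) rose. Of 18 regulators, TEFM, an elongation factor of mitochondrial transcription, rose by 0.49 and the mitochondrial RNA polymerase POLRMT fell by 0.44. The medians of these 5 lists were 0.26, 0.33, 0.24, 0.18 and 0.18, against 0.03 over all genes. Of 21 other mitochondrial proteins none was called, with a median of -0.05.

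With JQ1, 6 of the 18 regulators fell and none rose, among them the coactivators PPARGC1A (-1.06) and PPRC1 (-0.43), and TEFM (-0.53). Over the 5 lists together 10 of 78 genes were lower and 1 was higher, against 10.4% and 7.16% of all genes. Of the assembly factors for complexes IV and V, COA7 (-0.82), TACO1 (-0.72) and PET117 (-0.64) fell and SURF1 (0.53) rose, and of those for complex I TMEM186 fell by 0.62. Of the other mitochondrial proteins OGDH rose by 0.58. The 13 mRNAs of the mitochondrial genome encode further subunits of complexes I, III, IV and V. They had a median of 1.08 with JQ1, 0.29 with pinometostat and 0.42 with E92K, and none was called. The JQ1 median was -0.13 without JQ1 replicate 1, and the E92K median 0.13 without E92K replicate 4. Their summed level was 209816 CPM in JQ1 replicate 1 and 30995.9 to 38025.7 CPM in the other JQ1 libraries, against 33596.3 to 39146.9 CPM in H2A cells with DMSO. With both libraries left out, 7 of the 13 were called higher with pinometostat, against 12.9% of all genes. With E92K no gene of these lists was called.

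Promoter sequences from RefSeq (GRCh38.p14), 250 bases before to 50 bases after the start, were found for 65 of the 84 members. CCGGAAG, letters bound by ETS factors such as GABP, was present on either strand in 27.7% of these windows, against 10.7% of all 27305 windows. Those 27305 windows were not limited to genes expressed here or matched to the members. The shares therefore cannot show what is particular to respiratory chain genes. The letters of nuclear respiratory factor 1 (NRF1), GCGCA, any base, then GCGC, were present in 24.6% against 6.28%, and AANATGGC, bound by YY1, in 33.8% against 6.82%. CCAAT was present in 35.4% against 35.7%, GGGCGG, bound by SP1, in 58.5% against 44.6%, and TATAAA in 10.8% against 12%. In no member did matches of the ETS, NRF1, YY1 and CCAAT letters share bases, 40 of 65 members held at least 1 of the first 3, and 25 held none. A match describes letters, not a bound site. The 150 bases before the RefSeq start are shown for SDHA, which fell with pinometostat, and for 3 genes that rose, with matches of the ETS, NRF1 and YY1 letters in capitals. In each of these genes the RefSeq start lies inside the gene by the coordinates given above. The stretches thus reach into the genes, and that of ATP5PO lies wholly inside it.
SDHA, GRCh38.p14, chr5:218170-218319, plus strand: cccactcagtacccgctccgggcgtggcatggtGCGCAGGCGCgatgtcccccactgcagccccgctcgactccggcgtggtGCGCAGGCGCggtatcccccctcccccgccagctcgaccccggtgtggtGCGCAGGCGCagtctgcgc
ATP5PO, GRCh38.p14, chr21:33915805-33915954, minus strand: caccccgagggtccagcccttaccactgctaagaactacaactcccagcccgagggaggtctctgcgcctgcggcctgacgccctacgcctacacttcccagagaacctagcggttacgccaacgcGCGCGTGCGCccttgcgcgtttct
COX7B, GRCh38.p14, chrX:77899318-77899467, plus strand: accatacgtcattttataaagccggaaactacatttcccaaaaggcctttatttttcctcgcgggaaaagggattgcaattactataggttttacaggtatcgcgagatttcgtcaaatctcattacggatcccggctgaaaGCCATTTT
ATP5F1E, GRCh38.p14, chr20:59032336-59032485, minus strand: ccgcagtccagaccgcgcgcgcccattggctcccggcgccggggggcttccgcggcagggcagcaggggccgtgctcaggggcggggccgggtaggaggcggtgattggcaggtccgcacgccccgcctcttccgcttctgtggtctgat
The SDHA stretch holds the NRF1 letters 3 times, that of ATP5PO once, that of COX7B the YY1 letters once on the reverse strand, and that of ATP5F1E none of the 3. Of the 6 genes that rose with pinometostat and have a window, 3 hold the YY1 letters, 1 the NRF1 letters and 0 the ETS letters.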

How the data were processed

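Total RNA of 16 HEK293T libraries was sequenced by a service provider, per the labels' protocols. Per gene, the authors deposited counts in whole numbers, and their series table repeats the library files in all 920000 cells. The deposited TPM values equal the authors' counts per base of exon, rescaled so that each library has the same sum, within 0.001 TPM in every value. Aligner, counter and strand setting: not given in the sources used here. Coordinates come from the files and are on GRCh38; 96.3% of the identifiers also found in GENCODE 29 start and end at the same bases there. The sample field gives pinometostat in µM, while the treatment text gives millimolar; the sample field was used. The DMSO libraries carry DMSO in their titles and no compound in the treatment field. All columns were matched to a sample (0 unmatched).

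Genes were kept by filterByExpr (minimum count 10, minimum total 15). After TMM scaling, the 16 libraries entered 1 quasi-likelihood fit of edgeR 4.0.16 (R 4.3.3) with 4 group means and 12 residual degrees of freedom. Tests were two-sided, with Benjamini-Hochberg adjustment over 17306 genes and a threshold of 0.05. A standard error is the fold change divided by the square root of F. CPM values are scaled by TMM. Alternatives used DESeq2 1.42.0 and limma 3.58.1, and summaries Python 3.11.15. The scripts were tested on simulated counts. Between replicates, chi-square over genes was at least 3.72 per degree of freedom, so that no library was counted as a repeat of another.

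Named members were those called against H2A cells with DMSO (up to 12 per direction), the 2 most abundant per complex, ATP5IF1, NDUFA4, the SDH genes and isoform pairs, and up to 4 genes per other list. Other genes named were chosen after their values were seen. The members and lists were chosen with earlier results of these data known.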

Additional observations from a re-analysis of the deposited data

Results flagged for a closer look

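In 20 of 124 groups of 4 libraries examined, 1 library stood far from the other 3, and in 18 of the 20 it was JQ1 replicate 1. For independent groups chance gives about 1 in 20. These groups share libraries and their members move together, so the rates cannot be compared. Its mean log2 CPM was 7.72 over all members, against 7.11 to 7.19 in the other JQ1 libraries, 7.44 in complex I, 7.91 in complex IV and 8.31 in complex V, and 7.08 in complex II, against 7.40 to 7.43. Single genes were high in it in CPM: ATP5PO (241.6 CPM), COX7B (392), NDUFS5 (802), NDUFB10 (519.7), SDHD (152.8), UQCRH (645.5), ATP5MD (311), ATP5IF1 (851), COX6B1 (504) and UQCRHL (13.4). Others were low in it: ATP5PB (326 CPM), ATP5F1B (562) and SDHC (109.5). In TPM these last were again lowest in it among the JQ1 libraries, and COX7B, NDUFS5, ATP5MD, ATP5IF1 and COX6B1 again highest. ATP5PO (122 TPM, against 134 to 143), NDUFB10 (815, against 893 to 911), SDHD (102, against 119 to 126) and UQCRH (770, against 813 to 853) were instead lowest in it. For UQCRHL in TPM, JQ1 replicate 1 lay within the range of the others. Genes of the mitochondrial genome took 16.5% of its counts, and their part in these values was not tested. With pinometostat, NDUFB9 was high in replicate 3 (416 CPM, against 382 to 385), and COX6B2 was low in replicate 4 (0.849 CPM, against 0.939 to 0.950).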

How the results depend on the processing

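Of 32 other settings, 30 were planned and 2, leaving out both libraries with a high mitochondrial share and removing a GC trend, were added after the data were seen. Leaving out each library in turn gave 0 to 0 called members for E92K over H2A with DMSO, 0 to 6 for JQ1, 3 to 25 for pinometostat, 2 to 8 for E92K over JQ1, 0 to 5 for E92K over pinometostat and 8 to 25 for JQ1 over pinometostat. For E92K over H2A with DMSO, quality weights gave 11 members in place of 0. For JQ1 (1 member), the count was 3 with DESeq2, 8 with a length trend removed, 5 with no filter and 7 with quality weights, and it was 0 with library size alone, upper quartile scaling, mitochondrial genes removed, 50 counts in 4 libraries, 8 libraries of both groups, log2(TPM + 1), log2(TPM + 0.1), TPM with no filter, both libraries left out and a GC trend removed. For pinometostat (9 members), it was 15 with DESeq2, 39 with 8 libraries, 2 with log2(TPM + 1), 2 with log2(TPM + 0.1), 1 with TPM and no filter, 43 with quality weights, 40 with both libraries left out and 4 with a GC trend removed. For E92K over JQ1 (3 members, all lower), it was 1 with upper quartile scaling (higher), 6 with a length trend removed, 1 with no filter, 0 with 8 libraries, 1 with TPM and no filter (higher), 17 with quality weights (12 higher, 5 lower), 5 with both libraries left out (2 higher, 3 lower) and 1 with a GC trend removed. The 2 calls on log2(TPM + 1) and the 2 on log2(TPM + 0.1) were higher. For E92K over pinometostat (0 members), it was 3 with DESeq2, 1 with library size alone, 2 with a length trend removed, 2 with 8 libraries, 18 with quality weights, 14 with both libraries left out and 1 with a GC trend removed. For JQ1 over pinometostat (5 higher and 5 lower, 10 members), it was 20 with library size alone, 16 of them lower, 19 with a length trend removed, 15 of them higher, 16 with no filter, 8 of them lower, 20 with log2(TPM + 1), 16 of them lower, 21 with log2(TPM + 0.1), 17 of them lower, 40 with quality weights, 29 of them lower, and 37 with both libraries left out, 30 of them lower. Upper quartile scaling gave 14, 10 of them lower. NDUFV1 with JQ1 changed sign, to -0.0268 on the log2(TPM + 1) scale, -0.0270 on the log2(TPM + 0.1) scale and -0.0268 on log2(TPM + 1) with no filter. The causes were not tested. No sign was seen that replicate numbers pair the samples: 2 of 24 same-numbered pairs correlated above 0.1 in their deviations (-0.56 to 0.24), and 9 of 48 best matches had their own number. The largest correlation, 0.71, was between E92K replicate 4 and JQ1 replicate 1, which stand apart in their groups. Such libraries can hide a pairing, so the check cannot exclude it. With the replicate block 3 members were called for pinometostat and 0 for JQ1, and the other counts stayed within 1.5 times.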
